A study of Mus musculus with 2 samples.

Results

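The 97 genes described here encode subunits of the mitochondrial respiratory chain and of ATP synthase. They were chosen by name alone among the 33696 genes of the deposited count matrices: symbols beginning Nduf (with a letter of the subunit series), Sdh, Uqcr, Cox4 to Cox8 or Atp5, and the mitochondrial symbols mt-Nd, mt-Co, mt-Cyt and mt-Atp, with 1 pseudogene left out. Of them, 84 are nuclear genes and 13 lie in mitochondrial DNA. By complex, the nuclear genes comprise 37 of complex I, 4 of complex II, 8 of complex III, 18 of complex IV and 17 of complex V, and the mitochondrial genes 7 of complex I, 1 of complex III, 3 of complex IV and 2 of complex V. The name rule also takes in Ndufa4, which is now counted with complex IV, and Cox7a2l, a supercomplex factor, and it misses cytochrome c and a few subunits with other names.

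Complexes I to IV pass electrons from NADH and succinate to oxygen and, apart from complex II, pump protons across the inner mitochondrial membrane, and complex V uses the proton gradient to make ATP. Every complex except complex II is assembled from proteins of both genomes, so nuclear messages translated in the cytosol and mitochondrial messages translated inside the organelle have to meet in 1 structure. Skeletal muscle fibres depend heavily on this pathway and use muscle isoforms of several complex IV subunits, whereas fibro-adipogenic progenitors (FAPs), the resident mesenchymal cells of muscle, are small interstitial cells.

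The series title concerns autocrine insulin-like growth factor I of these progenitors in mouse skeletal muscle. It holds 2 single-cell libraries, 1 labelled WT and 1 labelled KO, both labelled ND and both of batch 1, each made from 10 tibialis anterior muscles pooled from 5 male mice. The labels name neither the deleted allele nor any Cre driver, give no age, and do not spell out ND. The labels call the cells FAPs, but cells were sorted for viability alone, after digestion and red cell lysis, so other cell types were captured too. With 1 library a group there is no replicate: every difference below compares 2 libraries, and each interval is an exact 95% interval for counting error only.

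The library labelled WT held 11360 barcodes and 38014703 unique molecular identifiers (UMIs), and the library labelled KO held 19531 and 101570863. After filters, 9773 and 17058 barcodes were kept, with medians of 2907 and 4156.5 UMIs, and 50 of the 61 barcode sequences listed in both libraries were kept in both. Clusters were named from marker genes, with the respiratory chain genes and all mitochondrial genes kept out of the clustering. This gave 9 classes with at least 100 cells in each library and 4 smaller ones. FAP-like cells numbered 1437 and 894, at median depths of 5495 and 11522 UMIs. They held all 11 FAP markers, at a summed 41011 and 37336 counts per 1000000 UMIs (CPM), and Igf1, the gene of the series title, stood at 383 and 433 CPM in them, so its level did not separate the labels there; in tenocyte-like cells it stood at 243 and 79.1 CPM. A cluster of 2759 barcodes, 16.2% of the kept KO barcodes, had no WT barcode, was left unnamed, and entered no comparison. In all, 520 WT and 3629 KO barcodes were left unnamed and entered no class.

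Promoters are shown first for the heart and muscle isoforms Cox8b and Cox7a1, beside their ubiquitous partners Cox8a and Cox7a2, because both isoforms were far more abundant in myofibre-like cells than in FAP-like cells, as described below. The windows are RefSeq's for GRCm38.p6, up to 250 bases before the annotated start with annotated exon bases left out, on the coding strand: Cox8a at chr19:7217617-7217866 (minus strand), Cox8b at chr7:140900447-140900696 (minus), Cox7a1 at chr7:30183921-30184143 (plus) and Cox7a2 at chr9:79759879-79760103 (minus). Capitals mark matches, on either strand, to the E-box CANNTG or to the ETS core CCGGAA.
Cox8a: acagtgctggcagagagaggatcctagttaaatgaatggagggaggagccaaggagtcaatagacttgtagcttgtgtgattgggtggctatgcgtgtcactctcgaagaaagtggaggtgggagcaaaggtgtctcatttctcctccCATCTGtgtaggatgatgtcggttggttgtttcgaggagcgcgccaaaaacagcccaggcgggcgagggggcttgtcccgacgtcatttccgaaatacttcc
Cox8b: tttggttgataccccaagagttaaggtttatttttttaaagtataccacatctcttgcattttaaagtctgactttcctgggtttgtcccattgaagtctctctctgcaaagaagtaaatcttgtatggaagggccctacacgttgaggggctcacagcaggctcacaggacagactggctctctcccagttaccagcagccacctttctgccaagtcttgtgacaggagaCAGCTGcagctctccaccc
Cox7a1: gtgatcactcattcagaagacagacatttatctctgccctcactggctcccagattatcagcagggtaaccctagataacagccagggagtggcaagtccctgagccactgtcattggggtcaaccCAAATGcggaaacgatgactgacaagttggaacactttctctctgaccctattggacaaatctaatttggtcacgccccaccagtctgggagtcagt
Cox7a2: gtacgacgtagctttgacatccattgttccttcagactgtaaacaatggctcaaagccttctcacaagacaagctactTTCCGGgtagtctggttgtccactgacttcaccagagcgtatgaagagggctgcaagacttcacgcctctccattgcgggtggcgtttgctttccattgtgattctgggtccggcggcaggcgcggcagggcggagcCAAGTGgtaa
Each window held 1 E-box match, Cox7a2 also held 1 ETS match, and none held the palindromic core searched for nuclear respiratory factor 1, GCGC and GCGC with any 2 letters between them. A window was at hand for 69 of the 84 nuclear genes, with 74 windows in all. A gene was counted if any of its windows matched, whereas the shares set beside it are per window. The nuclear respiratory factor core occurred in 14 of these 69 (20.3%), against 4.98% of all 32851 windows in the table. The ETS core occurred in 20 (29.0%), against 12%, and the E-box in 43 (62.3%), against 66.2%. These are letter matches and not measured binding.

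Both the nuclear and the mitochondrial genes took up a smaller share of the RNA in the library labelled KO, in every class compared. In FAP-like cells the 84 nuclear genes made up 0.682% of all UMIs in WT and 0.573% in KO, a log2 ratio of -0.25 (-0.27 to -0.23). The 13 mitochondrial genes made up 1.32% and 1.03%, a log2 ratio of -0.36 (-0.37 to -0.35). The per-cell medians showed the same order, at 0.685% and 0.559% for the nuclear genes and 1.27% and 1.01% for the mitochondrial ones. Both sums were lower in 9 of the 9 classes. A share of UMIs cannot tell less of these messages from more of all others. Under 2 alternatives the nuclear value for FAP-like cells moved by over 1.5 times, to -0.40 with each library clustered alone and to -0.16 with TMM scaling, and the mitochondrial one moved to -0.22, -0.22 and -0.20 with each library clustered alone, equal weight per cell and thinned cells.

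**Figure D1:**
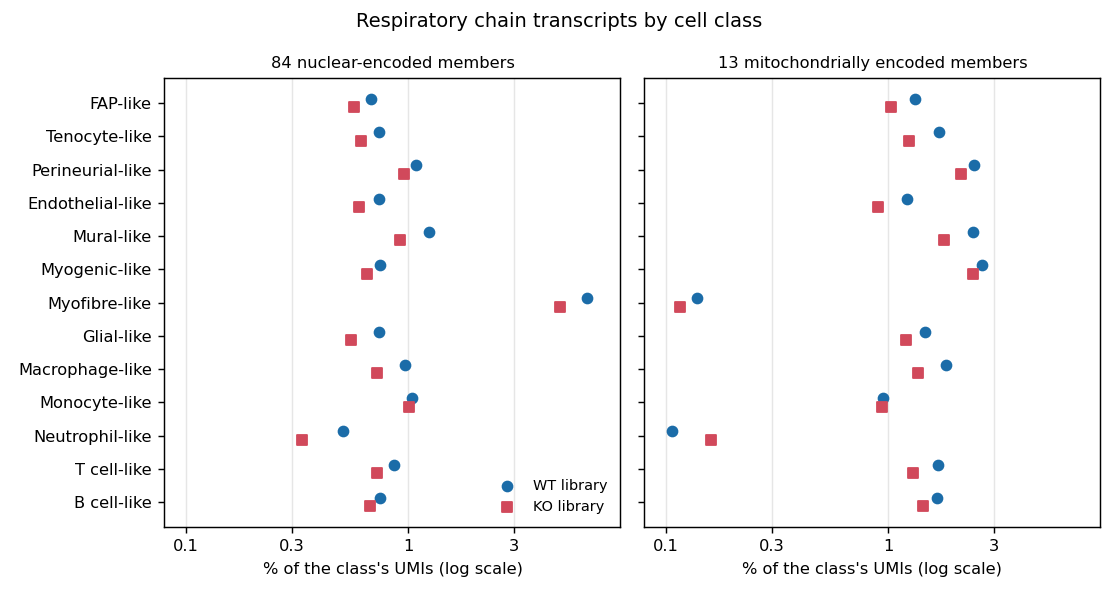
Share of all UMIs (percent, log axis) held by the nuclear and the mitochondrially encoded respiratory chain genes in each cell class, with 1 point per library. Myofibre-like cells stand apart at 6.34% and 4.8% nuclear and 0.137% and 0.116% mitochondrially encoded UMIs.

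The size of the difference varied by class and by genome. For the nuclear genes it was largest in the mural-like cells that wrap blood vessels, at 1.23% and 0.918% and a log2 ratio of -0.43 (-0.44 to -0.41). Glial-like and macrophage-like cells were each at -0.41, and myofibre-like cells at -0.40. The smallest nuclear ratio was in perineurial-like cells, at -0.18 (-0.23 to -0.13), followed by myogenic-like cells at -0.20 (-0.23 to -0.18). For the mitochondrial genes the lowest ratios were -0.44 in tenocyte-like and mural-like cells, and the one nearest to 0 was in myogenic-like cells, at -0.14 (-0.16 to -0.13). The mural-like sums also hold a changed mix of clusters: within the 4 mural-like clusters the mitochondrial ratio ran from -0.36 to -0.16 and the nuclear one from -0.42 to -0.15, and the cluster led by Abcc9, with 725 WT and 1291 KO cells, had the lowest mitochondrial share, at 1.19% and 1.05%.

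The balance between the genomes differed between classes. In the sums over FAP-like, tenocyte-like and endothelial-like cells the mitochondrial part was lower by more than the nuclear part, and the log2 ratio of mitochondrial to nuclear UMIs was -0.11, -0.16 and -0.13. This order did not hold throughout. In FAP-like cells it turned with each library clustered alone (nuclear -0.40, mitochondrial -0.22), in thinned cells (-0.34 and -0.20) and with equal weight per cell (-0.29 and -0.22). In 4 of the 5 endothelial-like clusters the mitochondrial part was lower by less than the nuclear one, with nuclear ratios of -0.36 to -0.24 and mitochondrial ones of -0.28 to -0.20. The clusters took different shares of the class in the libraries. A cluster led by Selp, Sele and Plvap (378 and 468 cells) was left unnamed and is not in this class. It went the other way, at -0.09 nuclear and -0.34 mitochondrial. In myogenic-like, myofibre-like and glial-like cells the order was the other way round, at 0.06, 0.16 and 0.14. Mural-like, perineurial-like and macrophage-like cells lay between -0.02 and -0.01. The myofibre-like value rests on few mitochondrial UMIs and depended on the cells taken: the mitochondrial log2 ratio there was -0.24 (-0.34 to -0.15), but 0.31 with doublets kept, 0.16 with a per-cell marker gate and 0.05 with equal weight per cell. The nuclear ratio in macrophage-like cells was 0.03 with the per-cell gate.

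**Figure D2:**
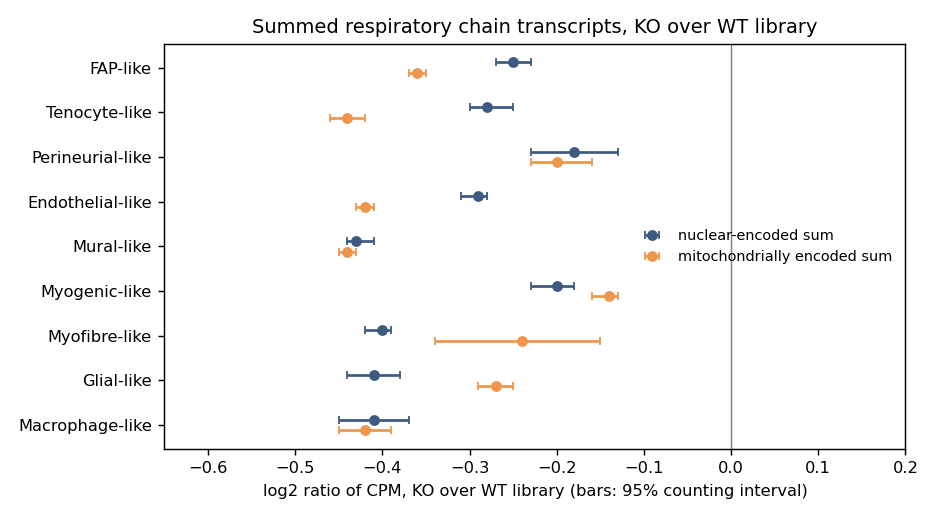
Log2 ratio of KO to WT for the summed nuclear and the summed mitochondrially encoded genes in the 9 compared classes, with 95% counting intervals. All points lie below 0, and the mitochondrial point lies nearer to 0 than the nuclear one in myogenic-like, myofibre-like and glial-like cells.

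Among the smaller classes, which were not compared by member, monocyte-like cells showed the ratios nearest to 0, at -0.05 (-0.11 to -0.00) nuclear and -0.02 (-0.08 to 0.03) mitochondrial. Both monocyte-like clusters were lower by more, at -0.43 and -0.23 in the one led by Adgre4 and at -0.18 and -0.09 in the one led by Chil3. The latter had the higher shares and held 14 of 69 WT and 90 of 156 KO cells. T cell-like cells were at -0.24 and -0.37, and B cell-like cells at -0.14 and -0.21. In neutrophil-like cells the nuclear share was 0.507% and 0.333%, and the mitochondrial share 0.107% and 0.159%, which rest on 118 and 1954 mitochondrial UMIs from 50 and 209 cells.

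The order of classes by level was read in each library apart. Myofibre-like cells held the most nuclear respiratory chain RNA, at 63413 CPM in WT and 47963 in KO, and the next class was mural-like at 12344 CPM in WT and monocyte-like at 10020 in KO. In WT, perineurial-like (10824 CPM) and monocyte-like cells (10400) did not differ beyond counting error, nor did the neighbours from myogenic-like (7484) through B cell-like, tenocyte-like and endothelial-like to glial-like cells (7346). FAP-like cells came next to last of 13 classes in WT, at 6816 CPM, above neutrophil-like cells at 5065. For the mitochondrial genes myogenic-like cells, which hold the muscle stem cells, led in both libraries at 26519 and 24008 CPM, and myofibre-like cells were at or near the bottom, at 1375 and 1163 CPM.

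Myofibre-like cells were the only 1 of the 9 compared classes in which nuclear messages far outnumbered mitochondrial ones. Mitochondrial cytochrome oxidase subunit 1, mt-Co1, was at 200 and 181 CPM there, against 4806 and 4018 in myogenic-like cells, and the ATP synthase subunit mt-Atp6 at 194 and 172, against 3896 and 3668. Of the 473 and 745 myofibre-like cells, 305 (64.5%) and 351 (47.1%) had no mitochondrial UMI, at median depths of 1857 and 2400 UMIs, against 3 and 2 FAP-like cells at their greater depth. The nuclear-retained RNA Malat1 was also low in this class, at 875 and 1060 CPM, against 16959 to 60432 CPM in the other compared classes. The 2 myofibre-like clusters went opposite ways: the mitochondrial share was 0.126% and 0.0773% in the cluster led by Ckm (-0.70) and 0.158% and 0.253% in the one led by Mylpf (0.68).

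A second kind of imbalance ran the other way, most strongly in 1 cluster each of the FAP-like, tenocyte-like and myogenic-like classes. In the FAP-like cluster led by Grm8 (216 and 149 cells) the nuclear genes held 0.114% and 0.137% of UMIs and the mitochondrial genes 2.09% and 1.87%, so mitochondrial UMIs outnumbered nuclear ones 18.3 and 13.7 times. The other 3 FAP-like clusters had ratios of 1.5 to 2.12 in WT. The tenocyte-like cluster led by Adamts3 had ratios of 17.5 and 12.4, and the myogenic-like cluster led by Tenm4 had 16.2 and 15.1. Cytosolic ribosomal protein messages were at 0.58% of UMIs in the cluster led by Grm8, against 4.67% to 7.89% in the other FAP-like clusters. They were at 0.642% in the one led by Adamts3 and 2.48% in the one led by Tenm4, against 13.8% in the other myogenic-like cluster. The mural-like cluster led by Abcc9 was at 2.3%. Nuclear Malat1 was at 53790 CPM in the cluster led by Grm8, against 17907 to 28958 CPM in the other FAP-like clusters. It was at 80467 CPM in the mural-like cluster led by Or51e2, whose ratios of mitochondrial to nuclear UMIs were 2.96 and 2.93. A milder imbalance was seen in the endothelial-like cluster led by Mcf2l, with ratios of 4.27 and 4.4, against 1.07 to 2.18 in the other endothelial-like clusters. Its ribosomal share was 0.938%. Its Malat1, at 21635 CPM, lay within the 20293 to 24277 CPM of the other endothelial-like clusters. Named classes held 29 clusters with at least 30 cells in each library. The clusters led by Grm8, Adamts3 and Tenm4 were the only ones of them whose nuclear share was not lower in KO, at log2 ratios of 0.26, 0.16 and 0.08. The mitochondrial share was lower in 27 of the 29, all but the myofibre-like cluster led by Mylpf and the neutrophil-like cluster.

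By gene, 77 of the 84 nuclear genes passed the floors in FAP-like cells, which required 20 CPM in 1 library and 100 UMIs over both. Of these 77, 13 (16.9%) were at least 1.5-fold lower in KO and 1 was at least 1.5-fold higher, on the scale of log2(CPM + 1). Over all 7084 genes past the same floors, 11.8% were lower and 11.7% higher by that much. The share of members lower is thus not far above the background, whereas only 1 was higher. The median nuclear member stood at -0.27, against 0.02 over all genes. The count of 13 became 8 with TMM scaling and 21 with each library clustered alone. All 13 mitochondrial genes passed, 2 of them were lower by 1.5-fold, and none was higher.

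**Figure D3:**
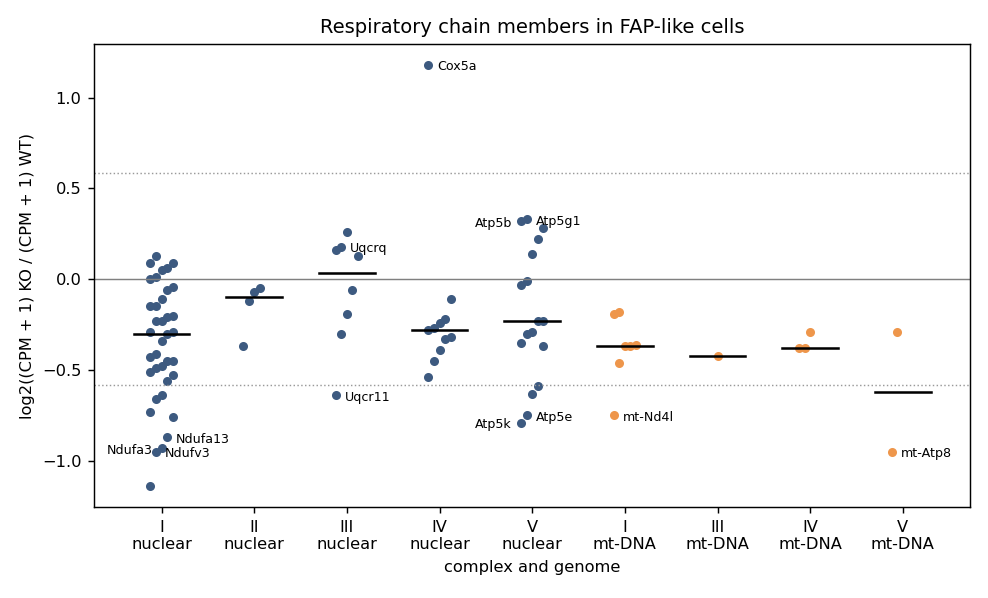
Log2 ratio of KO to WT (CPM + 1) of each respiratory chain gene that passed the floors in FAP-like cells, 1 point per gene, by complex and by genome, with bars at the medians and dotted lines at 1.5-fold. Most points lie below 0, and Cox5a, at 1.18, is the 1 point above the upper line.

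Complex I, the NADH dehydrogenase, is the largest group and held 8 of the 13 genes lower by 1.5-fold. These were 8 of its 37 nuclear genes, all of which passed the floors, with a median of -0.30. Complex V had 4 of 17 lower, and 11.8% of all genes past the floors were lower. The accessory subunit Ndufb4 was at 44.4 CPM in WT and 19.7 in KO, a log2 ratio of -1.14 (-1.43 to -0.92). Ndufv3, an accessory subunit beside the NADH-oxidising flavoprotein, was at 74.3 and 37.9 CPM (-0.95, -1.16 to -0.79). Ndufa3 was at 58.9 and 30.4 CPM (-0.93, -1.16 to -0.75). These were the lowest ratios of the complex.

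Ndufa13, also known as GRIM-19 and the highest nuclear complex I member by level, was at 133 and 72.5 CPM (-0.87, -1.02 to -0.74). Ndufa5 was at 76.2 and 44.6 CPM (-0.76), Ndufa7 at 94.9 and 56.7 (-0.73), Ndufa2 at 106 and 66.7 (-0.66) and Ndufa6 at 88.9 and 56.7 (-0.64). The complex was not lower throughout. Ndufs4, whose loss causes Leigh syndrome, was at 79.1 and 79.3 CPM (0.00, -0.15 to 0.15). Ndufa4, grouped here by its name though now counted with complex IV, was at 98.4 and 99.3 CPM (0.01).

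Complex II, succinate dehydrogenase, has no mitochondrial subunit and had no gene past both the floors and the fold in any of the 9 classes. With only 4 genes this does not set it apart: across the classes 3.55% to 11.9% of all genes were lower and 2.18% to 14.7% higher. In perineurial-like cells only 1 of its 4 genes passed the floors, and Sdhc, with 29 and 70 UMIs, stood at 60.7 and 100 CPM (0.72, with a lower bound of 0.08). In FAP-like cells the flavoprotein Sdha was at 60.8 and 57.8 CPM (-0.07, -0.25 to 0.10). The iron-sulfur subunit Sdhb was at 47.6 and 36.6 CPM (-0.37), and the membrane anchors Sdhc and Sdhd at 35.9 and 34.6 CPM (-0.05) and at 30.8 and 28.3 CPM (-0.12). Across the 9 classes the log2 ratio of Sdha ran from -0.17 to 0.06.

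Complex III, the cytochrome bc1 complex, had a median of 0.03 over its 8 nuclear genes in FAP-like cells, with genes on both sides of 0. The small subunit Uqcr11 was at 79.2 and 50.5 CPM (-0.64), and the hinge protein Uqcrh, its highest member, at 163 and 132 CPM (-0.30). The core proteins Uqcrc1 and Uqcrc2 were at 31.8 and 38.2 CPM (0.26) and at 47.2 and 52.9 CPM (0.16). Uqcrq was at 71.4 and 81.0 CPM (0.18, 0.03 to 0.34), but at -0.02 once a FAP-like sub-cluster marked by F2rl1, with 4 WT and 266 KO cells, was left out. Uqcrc2 was at -0.12 in thinned cells.

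Complex IV, cytochrome c oxidase, had 11 of 18 nuclear genes past the floors, none lower by 1.5-fold, and a median of -0.28. Cox4i1, its highest member, was at 254 and 214 CPM (-0.24, -0.33 to -0.16). Cox6c was at 218 and 150 CPM (-0.54), Cox8a at 244 and 179 (-0.45) and Cox7c at 227 and 173 (-0.39). These were lower and Cox5a was not.

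Cox5a, a nuclear subunit on the matrix side of cytochrome oxidase (ENSMUSG00000000088), was at 43.3 CPM in WT and 99.2 in KO, from 356 and 1024 UMIs. Its log2 ratio of 1.18 (1.02 to 1.37) was the only one past 1.5-fold upwards. A Cox5a UMI was found in 292 of 1437 WT cells (20.3%) and 481 of 894 KO cells (53.8%), at the unequal depths given above, and at equal depth of 2000 UMIs a cell the log2 ratio was 1.06. Its partner subunit Cox5b was at 103 and 88.3 CPM (-0.22).

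Subunits of complex V, ATP synthase, lay on both sides of 0. Of its 17 nuclear genes, 4 were lower by 1.5-fold. Atp5k, the e subunit of the membrane part, was at 62.2 and 35.4 CPM (-0.79, -1.01 to -0.61). Atp5e, the epsilon subunit of the central stalk (ENSMUSG00000016252), was at 173 and 103 CPM (-0.75, -0.87 to -0.64). Atp5j2 was at 116 and 75 CPM (-0.63) and Atp5mpl, a small proteolipid, at 72.9 and 48.0 (-0.59).

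The alpha and beta subunits of the catalytic head and the b subunit of the peripheral stalk lay on the other side of 0. Other stalk subunits did not: Atp5o and Atp5j were below 0 in all 9 classes, with highest values of -0.08 and -0.22. Atp5b, the catalytic beta subunit, was at 187 and 234 CPM (0.32, 0.23 to 0.41), and Atp5a1, the alpha subunit, at 127 and 148 CPM (0.22). Atp5pb, the b subunit of the stalk, was at 126 and 153 CPM (0.28). The 3 genes of the c ring, which encode the same mature protein, differed in direction: Atp5g1 was at 76.0 and 95.6 CPM (0.33, 0.18 to 0.48), Atp5g3 at 62.0 and 68.5 (0.14) and Atp5g2 at 117 and 90.9 (-0.35). With the F2rl1 sub-cluster left out Atp5b was at 0.16 and Atp5g1 at 0.07, and Atp5g3 was at -0.02 with each library clustered alone.

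The mitochondrial genes were lower in FAP-like cells of the KO library in 13 of 13 cases. The most abundant was mt-Co1, at 2550 and 1959 CPM (-0.38, -0.41 to -0.35), and the other cytochrome oxidase subunits mt-Co2 and mt-Co3 were at 1441 and 1106 CPM (-0.38) and at 1622 and 1326 (-0.29). Cytochrome b, mt-Cytb, was at 1291 and 965 CPM (-0.42). These 4 messages lay within a narrow band.

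The complex I subunits mt-Nd2, mt-Nd4, mt-Nd3 and mt-Nd5 were at 870 and 632 CPM (-0.46), 1348 and 1043 CPM (-0.37, -0.41 to -0.33), 140 and 108 CPM (-0.37), and 472 and 369 CPM (-0.36). mt-Nd1 was at 1017 and 895 CPM (-0.18), and at 0.02 with each library clustered alone. mt-Nd6, the only protein gene on the other strand of the mitochondrial genome, was the scarcest, at 41.9 and 36.6 CPM (-0.19, -0.41 to 0.02). Its interval reached 0.

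The pair furthest from 0 were the short genes mt-Atp8 and mt-Nd4l. mt-Atp8 (ENSMUSG00000064356) was at 170 and 87.4 CPM (-0.95, -1.08 to -0.84), whereas mt-Atp6, which is read from the same message, was at 2021 and 1648 CPM (-0.29, -0.33 to -0.26). mt-Nd4l was at 224 and 133 CPM (-0.75, -0.85 to -0.65), and mt-Nd4, on the same message, at -0.37. The genes of each pair overlap, and whether the split of reads between them when counted had a part in these values was not tested. The 2 libraries' files name different versions of Cell Ranger, 8.0.0 and 9.0.0. Version and label cannot be told apart.

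Of the 84 nuclear genes, 50 passed the floors in all 9 classes. Of those 50, 28 were below 0 in every class and none was above 0 in every class. Over all 1175 genes that passed in every class, 9.02% were below 0 throughout and 13.9% above it. Of the 9 mitochondrial genes that passed in all 9 classes, 8 were below 0 in every class. The exception was mt-Nd1, which was at 2221 and 2477 CPM in myogenic-like cells (0.16, 0.12 to 0.20).

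Among the nuclear members, 11 were at least 1.5-fold lower in 5 or more classes: Atp5e, Atp5k, Atp5j2 and Atp5mpl of complex V, Ndufa3, Ndufa13, Ndufb1, Ndufb4, Ndufc1 and Ndufv3 of complex I, and Uqcr11 of complex III. These are 11 of the 77 nuclear members past the floors in at least 5 classes, and over all 5925 such genes the share was 1.06%. Atp5e passed the fold in 9 of 9 classes, between -1.05 in glial-like cells (155 and 74.6 CPM) and -0.72 in myogenic-like (183 and 111) and macrophage-like cells (324 and 197). Atp5k passed it in 8 of the 8 classes in which it passed the floors, between -1.13 and -0.68, and Ndufa3 likewise, between -1.20 and -0.63. Ndufb4 passed it in 7 of 7. mt-Atp8 passed it in 8 of 8 and mt-Nd4l in 6 of 8.

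Atp5b, by contrast, lay between -0.10 in glial-like cells (216 and 202 CPM) and 0.34 in myogenic-like cells (240 and 305). Its myofibre-like levels were 1211 and 1218 CPM (0.01, -0.09 to 0.11), in the class where its partner Atp5e was at 2368 and 1385 (-0.77, -0.85 to -0.70). Levels of different genes are set side by side in CPM, which were not divided by length.

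Among tenocyte-like cells, which make tendon matrix, 14 of 77 nuclear members (18.2%) were lower by 1.5-fold and 1 was higher, against 9.40% and 11.6% of all genes. Here and in the classes below, the lowest and highest members named are those among genes with 50 CPM in 1 library and 200 UMIs. The lowest were Atp5k, at 76.5 and 34.4 CPM (-1.13), and Ndufb4, at 61.3 and 27.5 (-1.13). Cox5a was again highest, at 45.2 and 106 CPM (1.22, 0.97 to 1.51), followed by Ndufb6 at 45.5 and 58.1 (0.35). Of the mitochondrial genes, 4 of 13 were lower.

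In perineurial-like cells, which sheathe nerve bundles, 8 of 52 nuclear members (15.4%) were lower and 0 higher, against 11.9% and 14.7% of all genes. Cox6c was at 377 and 231 CPM (-0.70) and Cox5b at 243 and 174 (-0.48), while Atp5d was at 205 and 241 (0.23) and Atp5a1 at 232 and 270 (0.21). This class held 159 and 135 cells, and 1 of 12 mitochondrial genes was lower.

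In endothelial-like cells 12 of 77 (15.6%) were lower and 0 higher, against 5.47% and 2.18% of all genes. Atp5k was at 68.4 and 37.6 CPM (-0.84) and Atp5e at 156 and 92.1 (-0.75). The largest ratios were those of Atp5b, at 196 and 222 CPM (0.18), and Cox5a, at 120 and 127 (0.07, -0.03 to 0.18). In mural-like cells 16 of 78 (20.5%) were lower and 0 higher, against 5.29% and 3.52%. Atp5k was at 140 and 71.3 CPM (-0.96) and Uqcr11 at 186 and 97.0 (-0.93), while Ndufa8, a complex I subunit, was at 58.7 and 60.0 (0.03). In both vascular classes 2 of 13 mitochondrial genes were lower.

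In myogenic-like cells 9 of 77 (11.7%) were lower and 1 higher, against 10.1% and 11.1% of all genes, so the share of members lower was near the background. Atp5k was at 57.2 and 27.3 CPM (-1.04) and Uqcr11 at 109 and 62.0 (-0.80), while Cox5a was at 72.9 and 114 (0.64, 0.43 to 0.88) and Atp5g1 at 80 and 109 (0.44). In glial-like cells 21 of 77 (27.3%) were lower and 0 higher, against 3.55% and 4.39%. Atp5e was at 155 and 74.6 CPM (-1.05) and Atp5md, another small membrane subunit, at 84.8 and 42.2 (-0.99), and the highest ratio with Cox5a set aside was that of Atp5pb, at 130 and 134 (0.04). In macrophage-like cells 22 of 70 (31.4%) were lower and 0 higher, against 7.30% and 7.06%. Atp5md was at 131 and 68.8 CPM (-0.92) and Atp5mpl at 134 and 73.6 (-0.85), and Atp5a1 at 158 and 198 (0.32) and Atp5g3 at 79.4 and 88.7 (0.16).

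In myofibre-like cells 18 of 79 (22.8%) were lower and 0 higher, against 4.58% and 6.66% of all genes. The lowest were the muscle isoforms Cox7a1, at 671 and 321 CPM (-1.06, -1.22 to -0.91), and Cox8b, at 1637 and 829 (-0.98, -1.08 to -0.89). The most abundant members were Cox6a2 at 2786 and 2201 CPM, Atp5e, Cox7c at 2125 and 1507, and Atp5g1 at 1967 and 1470. Uqcrc2, at 289 and 319 CPM (0.14), and Ndufv1, at 198 and 211 (0.10), had the largest ratios. None of the 9 mitochondrial genes past the floors was lower by 1.5-fold.

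The complex IV subunits with more than 1 isoform separated the classes sharply. In myofibre-like cells Cox6a2, the heart and muscle form, made up 99.5% (99.1% to 99.7%) and 99.4% (99.1% to 99.6%) of Cox6a1 and Cox6a2 UMIs. Cox8b, whose promoter is printed above, made up 94.2% (93.0% to 95.3%) and 93.1% (91.9% to 94.1%) of the Cox8 pair. Cox7a1 made up 49.0% (46.3% to 51.6%) of the Cox7a pair in WT and 38.6% (36.4% to 40.8%) in KO, and these intervals did not overlap.

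Outside the fibres these isoforms were scarce in most classes. In FAP-like cells Cox6a2 was at 2.07 and 1.94 CPM and made up 1.45% and 1.69% of its pair, Cox8b 1.72% and 1.18%, and Cox7a1 1.85% and 0.714%. In T cell-like cells no Cox6a2 UMI was found beside 57 and 164 of Cox6a1, which allows a share of up to 6.27% and 2.22% by the exact upper bound. How much of the counts outside the fibres is free RNA was not tested.

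Mural-like cells stood apart for Cox4i2, an isoform tied to oxygen sensing, which was at 218 and 170 CPM and made up 38.1% (36.3% to 39.9%) and 35.1% (33.9% to 36.3%) of the Cox4i pair. It made up 2.44% and 3.14% in endothelial-like cells and 0.619% and 1.12% in FAP-like cells. The hypoxia-linked Ndufa4l2, which the name rule does not take in, was likewise at 507 and 423 CPM in mural-like cells and at 46.4 and 26.8 in FAP-like cells. Perineurial-like cells held Cox6b2, best known from testis, at 22.6% (15.3% to 31.3%) and 20.4% (14.4% to 27.5%) of its pair, and Cox7a1 at 21.9% and 14%. Cox6b2 did not pass the floors in any class, nor did Cox7b2 and Cox8c.

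**Figure D4:**
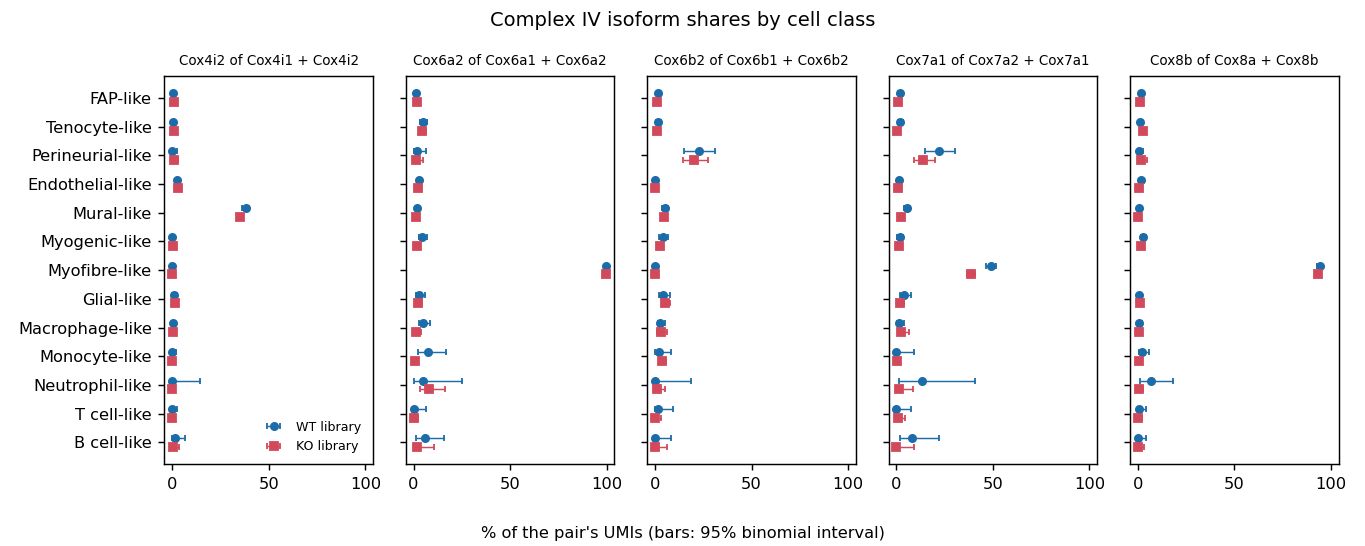
Share (percent of the pair's UMIs) of the tissue-restricted isoform in each isoform pair of complex IV, by cell class and library, with 95% exact binomial intervals. Myofibre-like cells hold nearly all of their Cox6a and Cox8 UMIs as Cox6a2 and Cox8b, and mural-like cells hold 38.1% and 35.1% of Cox4i as Cox4i2.

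The Cox5a ratio differed in direction between classes, and in size within FAP-like cells. Beside the FAP-like and tenocyte-like values, it was at 42.1 and 60.4 CPM in glial-like cells (0.51, 0.12 to 0.94) and at 103 and 126 in perineurial-like cells (0.30). It was at 147 and 150 in macrophage-like cells (0.03), 116 and 104 in mural-like cells (-0.15, -0.29 to -0.01) and 1434 and 1311 in myofibre-like cells (-0.13, -0.22 to -0.04). The 5 classes above 100 CPM in WT had ratios of -0.15 to 0.30, and the 4 below it 0.51 to 1.22.

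Within FAP-like cells the largest WT sub-cluster, led by G0s2 with 513 and 74 cells, had Cox5a at 40.3 and 39.9 CPM (-0.01). The sub-cluster led by Pi16, a marker of progenitors in the fascia, had it at 55.4 and 99.5 CPM (0.83), and the one led by Dlk1 at 41.2 and 105 (1.34). The sub-cluster led by F2rl1 held Cox5a at 139 CPM in its 266 KO cells. Without it the log2 ratio over FAP-like cells was 0.85, and with sub-clusters mixed equally 0.80, against 1.18 as summed. Atp5e, in contrast, was lower in all 7 sub-clusters with at least 30 cells in each library, between -0.87 and -0.47, and so was mt-Atp8, between -1.28 and -0.77. Some of these ratios rest on few counts: the -0.87 of Atp5e on 11 and 5 UMIs, and the -1.28 of mt-Atp8 on 46 and 40.

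Members with short messages tended to be the lower ones. Message length was taken as the median length of a gene's protein-coding transcripts in GENCODE M21. This median is over annotated transcripts and can differ from the message expressed. The large subunits Ndufs1 and Uqcrc1 are given 651 and 533 nucleotides, and the small subunits Ndufb2 and Atp5g1 2413 and 2675.5. In FAP-like cells the 12 nuclear members under 500 nucleotides had a median log2 ratio of -0.51, the 28 from 500 to under 700 nucleotides -0.34, the 17 from 700 to under 1000 -0.23, the 16 from 1000 to under 2000 -0.09, and the 3 from 2000 to under 4000 0.22. Atp5k (321.5 nucleotides), Atp5e (421) and Ndufa3 (433) were among the shortest, and Atp5a1 (2572.5) and Atp5b (1916) among the longest. By this measure the order had exceptions. Ndufb4 (971 nucleotides), the lowest member of all, Ndufv3 (645) and Ndufa13 (1251) were lower than most members of their length. Cox5a (645) was higher. Whether the measure of length bears on these exceptions was not tested.

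Up to 4000 nucleotides, other genes showed a weaker gradient of the same direction in the same cells. Their medians in these length groups were -0.17 over the 94 genes under 500 nucleotides, -0.08, -0.02, 0.05 and 0.06. The 1550 genes of 4000 nucleotides and over were at 0.01. With cytosolic ribosomal proteins left out, the median under 500 nucleotides was -0.10. Spearman's rho between length and log2 ratio was 0.39 over 76 nuclear members and 0.02 over 6861 other genes in FAP-like cells. Over the other 8 classes it ran from 0.40 to 0.62 for the nuclear members and from -0.08 to 0.19 for other genes. All points share 2 libraries, so these values are a description. The nuclear members under 500 nucleotides had medians between -0.80 in glial-like and -0.45 in myogenic-like cells. Other genes of that length had medians between -0.23 and -0.05, or between -0.13 and 0.07 without cytosolic ribosomal proteins. Set against other genes of the same length, 7 nuclear members were lower by 1.5-fold in FAP-like cells and 1 was higher.

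**Figure D5:**
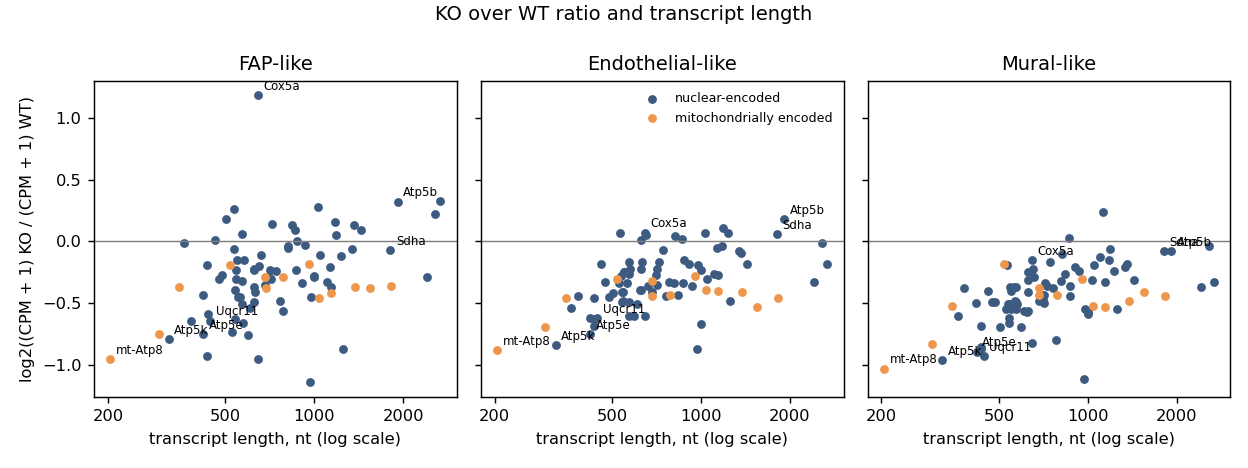
Log2 ratio of KO to WT (CPM + 1) against transcript length (nucleotides, log axis) for the nuclear and the mitochondrially encoded members past the floors in FAP-like, endothelial-like and mural-like cells, 1 point per gene. Members under 500 nucleotides lie mostly below those over 1000, and in FAP-like cells Cox5a lies above the others of its length.

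Cytosolic ribosomal proteins, also encoded by short and abundant messages, had a median of -0.18 in FAP-like cells, against -0.27 for the nuclear respiratory chain genes. Of 80, 77 passed, 8 were lower by 1.5-fold and 0 higher. For this list and those below, the shares over all genes past the floors in FAP-like cells were 11.8% lower and 11.7% higher. The ribosomal count lower is thus not above the background in these cells. It was 14 of 77 in macrophage-like, 12 in endothelial-like, and 10 each in glial-like, myofibre-like and tenocyte-like cells. The shares of all genes lower there were 7.30%, 5.47%, 3.55%, 4.58% and 9.40%. Mural-like cells had 6 lower (5.29% of all genes), and perineurial-like and myogenic-like cells 4 each (11.9% and 10.1%). In FAP-like cells Rpl29 was at 365 and 154 CPM (-1.24), Rps28 at 623 and 315 (-0.98) and Rpl39 at 819 and 450 (-0.86). Of 78 mitochondrial ribosomal proteins 49 passed, 3 were lower and 1 was higher, with a median of 0.02. Mrps21 was at 54.6 and 29.6 CPM (-0.86), Mrps6 at 135 and 88.6 (-0.60) and Mrpl48 at 102 and 173 (0.75).

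The genes that assemble the complexes or regulate them were mostly scarce. Of 15 complex I assembly factors, 3 passed the floors, 0 were lower and 1 was higher: Ndufaf4, at 16.9 and 51.5 CPM (1.55, 1.34 to 1.89). Of the 10 assembly factors of complexes II and III, 4 passed, 1 was lower and 0 higher. Uqcc2 was at 70.9 and 43.9 CPM (-0.68) and Ttc19 at 91.7 and 121 (0.39). Of the 23 for complex IV, 10 passed, with a median of -0.40, 2 lower and 1 higher, and the named ones were Cox16, at 150 and 104 CPM (-0.52), and the copper chaperone Cox17, at 50.2 and 38.2 (-0.39). Of the 4 for ATP synthase, 2 passed and none was past the fold.

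Of 17 genes that maintain or transcribe mitochondrial DNA, 10 passed, 0 were lower and 2 higher, with a median of 0.41. Of 10 mitochondrial translation factors, 1 passed and was higher. Of 13 regulators of mitochondrial biogenesis, 6 passed, 0 were lower and 1 was higher: Pprc1, a relative of PGC-1alpha, at 35.6 and 68.9 CPM (0.93). Gabpb1, a subunit of the ETS factor nuclear respiratory factor 2, was at 47.0 and 68.3 CPM (0.53), and Nrf1, nuclear respiratory factor 1, at 64.1 and 77.3 (0.27). The medians of the maintenance and regulator lists, 0.41 and 0.21, lay above 0.

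Of 11 subunits and carriers that the name rule misses, 8 passed, 3 were lower and 1 was higher. The one higher was Cycs, cytochrome c, which carries electrons to the oxidase, at 56.1 and 135 CPM (1.26, 1.12 to 1.43). Etfb, of the electron-transferring flavoprotein, was at 66.9 and 41.2 CPM (-0.69), and Higd1a at 41.0 and 53.7 (0.38). Like Cox5a, Cycs was higher in KO in tenocyte-like cells (51.3 and 111 CPM) and myogenic-like cells (65.7 and 127), and lower in mural-like cells (283 and 236) as well as in myofibre-like ones (1204 and 872). Unlike Cox5a, it was lower in glial-like cells, at 89.4 and 73.5 CPM. Within FAP-like cells, 748 of the 1398 KO UMIs of Cycs came from the F2rl1 sub-cluster, which held 4 WT and 266 KO cells. The sub-cluster led by G0s2 had Cycs at 62.6 and 61.6 CPM (-0.02). In the other sub-clusters with at least 30 cells in each library its log2 ratio was 0.61 to 1.31.

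Markers of other cells were counted in the same FAP-like cells. Of 12 myofibre markers 11 were detected in each library, summing to 293 and 306 CPM, with Myh7 at 0. Of 10 endothelial markers all were detected, at 189 and 286 CPM, and of 11 glial markers 9 and 11, at 2412 and 2349 CPM, with Sox10 and Foxd3 at 0 in WT. The 6 erythroid markers summed to 458 and 412 CPM. Their part in the results was not tested. The depth of FAP-like cells, 5495 and 11522 UMIs at the median, differed with the label, and with every cell thinned to 2000 UMIs the sums stood at -0.34 for the nuclear and -0.20 for the mitochondrial genes.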

How the data were processed

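Both libraries were deposited by the authors as raw UMI counts per gene and barcode after cell calling. They were made with Cell Ranger on build mm10, per the submitters' processing notes, which name version 9.0.0, as the file header of the KO library does, whereas the file header of the WT library names 8.0.0. Barcodes were kept from 500 genes upwards and up to 10% mitochondrial UMIs, and the 516 (WT) and 1522 (KO) barcodes most like simulated doublets were removed, up to 0.4% per 1000 barcodes, since an automatic threshold called none in KO. The filters kept 86.0% and 87.3% of barcodes, and the study states about 15000 retained cells per library. Counts were scaled per cell, 30 principal components of genes variable in each library were taken with respiratory chain and mitochondrial genes left out, and both libraries were clustered together (Leiden resolution 1, 20 neighbours; scikit-learn 1.9.0, leidenalg 0.10.2). A cluster was called X-like from marker genes, at least 3 of them 2-fold above the other cells. A further condition, that it hold no more markers of another class than of its own among its top 10 genes, was added after seeing the clusters. A difference from the study's own classes may come from this naming.

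Raw UMIs were summed per class and library and given as CPM and as log2 ratios with a pseudocount of 1 CPM, for genes with 20 CPM in 1 library and 100 UMIs over both (Python 3.11.15, numpy 2.4.6, scipy 1.17.1). Ratios carry exact conditional binomial intervals and shares Clopper-Pearson intervals, both at 95%. There is no test, since each group has 1 library. TMM factors came from edgeR 4.0.16. The summing and calling of genes was tested on simulated data. The genes named were the mitochondrial ones, the highest nuclear member of each complex, the isoform sets, the 8 largest and 8 smallest ratios in FAP-like cells and the 2 largest and 2 smallest elsewhere (among genes reaching 50 CPM in either library and 200 UMIs in all), and up to 3 per further list. The members of complexes named beyond these were chosen after their values were seen. Members, lists and markers were chosen with earlier results of these data known. The values of 1 gene that this rule names are not reported here.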

Additional observations from a re-analysis of the deposited data

Results flagged for a closer look

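Cox5a stood out because its ratio differed between classes in sign, with counting intervals on both sides of 0. Its log2 ratio of KO to WT was 1.18 in FAP-like, 1.22 in tenocyte-like and 0.64 in myogenic-like cells, but -0.15 in mural-like and -0.13 in myofibre-like cells. Uqcrq was at 0.18 in FAP-like cells and at -0.69, -0.81 and -0.72 in mural-like, myofibre-like and glial-like cells. Ndufb6 was at 0.35 in tenocyte-like and -0.68 in macrophage-like cells. With 1 library per group these differences between classes were not tested.

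The unnamed cluster of 2759 barcodes that only the library labelled KO held lies outside the comparisons. Cox5a was at 317 CPM in it, against 148 CPM in the other kept KO barcodes, and was among its 10 leading genes, so its level there is a description. Its median depth was 1363 UMIs, against 4956 in the others. The nuclear genes made up 0.769% of its UMIs (0.774% in the others) and the mitochondrial genes 1.41% (1.23%). No WT barcode was in it, which allows a share of up to 0.0307%.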

How the results depend on the processing

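No paired analysis was possible because each group has 1 library, and no replicate could be left out. No alternative turned the direction of the FAP-like sums. The mitochondrial sum, -0.36 as reported, was -0.34 with the strict filter, -0.32 with doublets kept, -0.33 with the per-cell marker gate, -0.22 with each library clustered alone, -0.26 with TMM factors, -0.22 with equal weight per cell, -0.20 in cells thinned to 2000 UMIs, -0.33 with sub-clusters mixed equally and -0.30 with the F2rl1 sub-cluster left out. The nuclear sum, -0.25 as reported, was -0.28 with doublets kept, -0.27 with the gate, -0.40 with each library alone, -0.16 with TMM factors, -0.29 with equal weight, -0.34 thinned, -0.28 with the equal mix, -0.31 without the F2rl1 sub-cluster and -0.28 without the cluster led by Grm8. The count of nuclear members lower by 1.5-fold in FAP-like cells, 13 as reported, was 21 with each library alone, 8 with TMM factors, 4 with a floor of 100 CPM, 1 at 2-fold and 7 relative to genes of the same length. The count of 1 higher became 0 with the floor of 100 CPM, which Cox5a does not reach. Leaving out either cluster and the length adjustment were chosen after seeing the data. The nuclear sum was lower in 6 of 8 classes with the gate, and in every class compared under the other alternatives. The mitochondrial sum was lower in 7 of 8 with the gate, in 8 of 9 with doublets kept and with equal weight, and in every class compared under the others. Of 164 other class sums, 4 had the other sign, and so had 12 of 480 values of named members in FAP-like cells. The cause of these shifts was not tested. Depth limits the scarce genes most: Cox6b2, Cox7b2 and Cox8c passed the floors in no class.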
